A study of Homo sapiens with 22 samples.

Results

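The genes described here are 7 transcription regulators that the fusion protein EWSR1::FLI1 is known to raise in Ewing sarcoma, out of 20007 named protein-coding genes in GENCODE release 44. NR0B1, NKX2-2, BCL11B, SOX2, PAX7, GLI1 and MYBL2 were chosen by name, and every called peak within 100 kb of any of their transcription start sites (TSSs) on hg38 was taken as a peak near them. GGAA repeats of at least 4 head-to-tail units in the same windows were added from the genome sequence. After peaks that overlapped by at least 1 bp were merged across lists, these windows held 90 of 90572 H3K27ac regions, 30 of 20727 H3K4me3 regions and 7 of 2706 ETS1 regions.

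The study used TC-32, an established Ewing sarcoma cell line, into which 20 nM of siRNA was transfected: siNEG, a control, or siFLI1, which targets FLI1 and was used to deplete the fusion. Both arms therefore carried the fusion gene and had been through transfection. Each arm had 2 ChIP-seq peak lists with an H3K27ac antibody from Active Motif, 2 with an H3K4me3 antibody and 2 with an ETS1 antibody, and 1 more H3K27ac list labelled ab4729. The ab4729 label also carries the Active Motif catalogue number, so which antibody that pair used is unsure. The time after transfection was not given in the sources used here, nor was whether the 2 replicates of an arm were separate transfections. The spread between replicates may therefore be technical.

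EWSR1::FLI1 joins part of the RNA-binding protein EWSR1 to the DNA-binding ETS domain of FLI1. At runs of GGAA, which in most cells are silent chromatin, the fusion is known to recruit chromatin regulators and to create active enhancers, whereas at single ETS sites it can displace other ETS factors. H3K27ac marks active enhancers and promoters, H3K4me3 marks promoters, and both are read here only as the presence and size of called peaks.

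The DNA that carries these repeats is shown first, because the H3K27ac regions beside it are compared between the arms below. The sequences were read from hg38 along the strand that spells GGAA, with 10 flanking bases on each side and runs of 3 or more GGAA units in capitals. Those of NR0B1, SOX2 and the longest of NKX2-2 and PAX7 were taken by rule as the longest run of each gene. The 9-unit run of NKX2-2 and the 14-unit run of PAX7 were added after their peaks had been seen. The NR0B1 repeat lies at chrX:30310748-30310869 on the minus strand, 1.39 kb upstream of the TSS, between genes. The 20-unit run of NKX2-2 lies at chr20:21576274-21576373 on the minus strand, 62.3 kb upstream, in an intron of the long non-coding RNA gene LINC01727. The 9-unit run lies at chr20:21555818-21555873 on the minus strand, 41.8 kb upstream, between genes. The SOX2 run lies at chr3:181673606-181673677 on the plus strand, 38.3 kb upstream, in an intron of ENSG00000239381. The 18-unit run of PAX7 lies at chr1:18611263-18611354 on the plus strand, 19.5 kb upstream, between genes, and the 14-unit run at chr1:18667338-18667459 on the plus strand, in an intron of PAX7.
NR0B1 repeat: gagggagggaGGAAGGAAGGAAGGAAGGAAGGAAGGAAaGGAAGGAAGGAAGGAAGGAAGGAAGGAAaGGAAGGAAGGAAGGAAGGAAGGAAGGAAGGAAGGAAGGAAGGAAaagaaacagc
NKX2-2 repeat of 20 units: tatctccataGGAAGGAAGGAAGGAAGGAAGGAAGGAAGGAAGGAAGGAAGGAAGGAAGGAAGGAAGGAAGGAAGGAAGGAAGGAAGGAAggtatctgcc
NKX2-2 repeat of 9 units: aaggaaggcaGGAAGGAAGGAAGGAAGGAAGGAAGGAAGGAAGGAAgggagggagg
SOX2 repeat of 13 units: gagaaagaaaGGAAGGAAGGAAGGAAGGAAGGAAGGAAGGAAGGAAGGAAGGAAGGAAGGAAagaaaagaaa
PAX7 repeat of 18 units: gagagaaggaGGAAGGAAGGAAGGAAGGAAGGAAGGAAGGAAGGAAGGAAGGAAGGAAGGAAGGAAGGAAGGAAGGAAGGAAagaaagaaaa
PAX7 repeat of 14 units: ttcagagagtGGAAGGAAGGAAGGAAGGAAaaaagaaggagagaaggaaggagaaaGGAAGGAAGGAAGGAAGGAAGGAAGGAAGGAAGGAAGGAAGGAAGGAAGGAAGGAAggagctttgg
The NR0B1 sequence holds 25 GGAA units in 3 runs, of 7, 7 and 11 units, each parted from the next by a single a. The runs of 20 and 18 units at NKX2-2 and PAX7 are among the longest of the genome. Of 16606 such repeats in hg38, the median length was 5 units, and 0.626% reached 18 units.

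In all, 19 repeats lay within 100 kb of 4 of the 7 genes. PAX7 had 10 repeats, NR0B1 4, SOX2 3 and NKX2-2 2, and none lay near BCL11B, GLI1 or MYBL2. Among all protein-coding genes, 59.3% had such a repeat within 100 kb, so having one did not set these genes apart. The 4 genes differed in the peaks beside their repeats. Of the 19 repeats, 7 had an H3K27ac peak of both siNEG lists within 1 kb, and they were the 3 runs of NR0B1 beside its promoter, both repeats of NKX2-2 and 2 runs of PAX7 upstream of the gene. Genome-wide, 10.7% of repeats had such peaks. Adjacent runs were counted singly, here and genome-wide. The 3 NR0B1 runs are parted by single bases and the 2 PAX7 runs lie beside the same region, so they share peaks. None of the 3 SOX2 repeats had an H3K27ac peak within 1 kb in any list, the 13-unit run included, and neither did 6 of the 10 at PAX7.

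The read depth of the libraries is not stated in the peak lists. The 4 H3K27ac lists held 60027 and 60401 peaks (siNEG) and 65501 and 61481 (siFLI1), covering 63.0, 58.6, 69.2 and 65.6 Mb, and the ab4729 lists held 32738 and 51663. The H3K4me3 lists held between 18344 and 19720 peaks, and the ETS1 lists 302 and 208 (siNEG) against 1633 and 2635 (siFLI1). For ETS1, peak heights in the pair of siFLI1 lists differed less than sampling noise allows (chi-square per degree of freedom 0.417 over 496 regions), and the peak names of replicate 1 carry the number 2, so the pair was counted as 1 sample. H3K4me3 lay over the TSS in all 4 lists for 3 of 3 markers of Ewing sarcoma cells (CD99, STEAP1 and CAV1) and for 1 of 7 markers of other lineages (KRT18). H3K27ac lay over a TSS in 3 lists each for EPCAM and PECAM1, which are among those 7. Peak lists do not give the level of the fusion, so its depletion was not checked here. In bulk chromatin, a mark on fewer cells and less of the mark per cell cannot be told apart.

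A region was called lost when both siNEG lists and no siFLI1 list had a peak in it, and gained in the opposite case. Near the 7 genes, 10 of 90 H3K27ac regions (11.1%) were lost, against a background of 4.86%, and 1 of 90 (1.11%) was gained, against 8.19%. Near 6 of the 7 genes at least 1 region was lost and more were lost than gained. Genome-wide, 31.1% of protein-coding genes had a lost region within 100 kb, 48.9% had a gained one, 16.0% had more lost than gained, and 38.5% had more gained than lost. BCL11B had 4 lost regions of 29 and the 1 gained region, NKX2-2 2 of 14, and NR0B1 (of 4), SOX2 (of 6), PAX7 (of 5) and MYBL2 (of 11) 1 each. GLI1 had none of 21. Each of the 10 lost regions had one of the 7 genes as its nearest protein-coding gene. So had 19 of the 26 regions in all 4 lists and 34 of the 53 in some lists. The windows of NKX2-2, BCL11B, SOX2 and PAX7 hold no other coding TSS, so the nearest gene there was largely set by the windows. None of the 10 lost regions covered a TSS, and their width ran from 464 to 1628 bp. Of the other regions, 26 were in all 4 lists, and 53 were in some lists only: 30 in 1 siNEG list alone, 10 in 1 siFLI1 list alone and 13 in lists of both arms. The counts depend on asking for a peak in both lists: without siNEG replicate 1 or replicate 2 the lost regions were 30 or 26, and without either siFLI1 list the gained regions were 7.

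**Figure D1:**
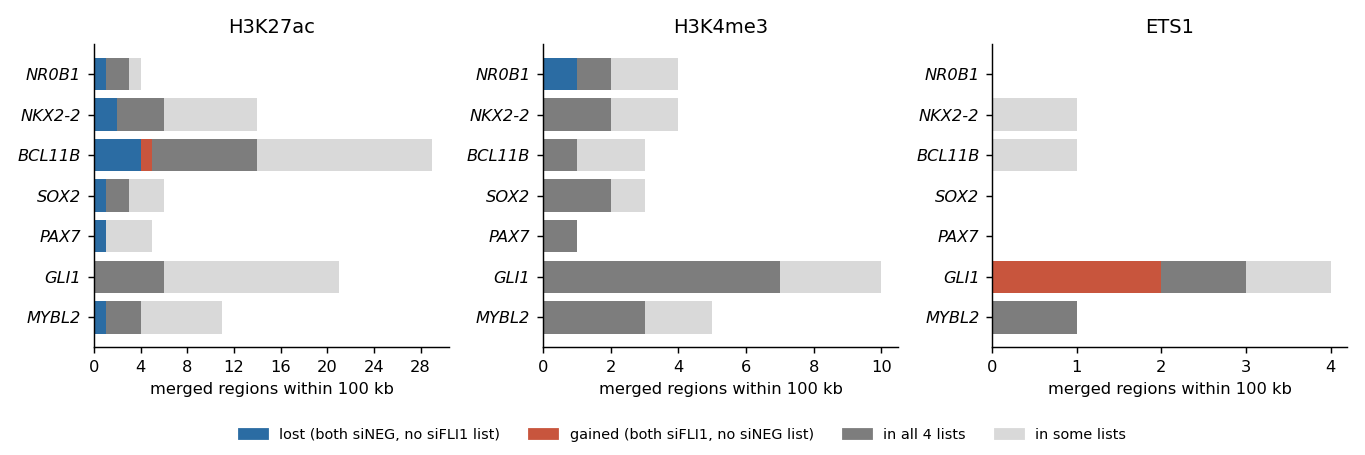
Merged regions within 100 kb of each gene (horizontal axis, number of regions) for H3K27ac, H3K4me3 and ETS1, coloured by whether they were lost, gained, in all 4 lists or in some lists. Lost H3K27ac regions stand at 6 of the 7 genes, with 4 at BCL11B and none at GLI1, and the 2 gained ETS1 regions both stand in the GLI1 window.

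The ab4729 pair, 1 list per arm, was set beside the same regions. Of the 10 lost regions, 7 had a peak in neither ab4729 list, as did 79.7% of all lost regions of the genome. At NKX2-2 the lost region with the highest fold had an ab4729 peak in the siNEG list alone. At BCL11B one lost region had an ab4729 peak in the siFLI1 list alone and another in both, so that these 2 regions were not lost in that pair.

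The kilobases of H3K27ac peaks within 100 kb give a measure that does not depend on how regions are merged. They were lower in both siFLI1 lists than in both siNEG lists at 4 of the 7 genes (NR0B1, NKX2-2, BCL11B and PAX7), against 15.5% of protein-coding genes, and higher in both at 1 (MYBL2), against 53.0%. With 2 lists against 2, an exact two-sided permutation test cannot go below p = 0.33, the value of each of these 5 genes, so no difference could pass a threshold of 0.05. The median log2 difference (siFLI1 minus siNEG) over all genes was 0.27, and 100 bp were added to every value before the log. For H3K4me3 the covered length was lower in both siFLI1 lists at 6 of the 7 genes, against 52.2% of genes, and higher at none, against 14.1%. The median H3K4me3 difference over all genes was itself below 0, at -0.12.

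**Figure D2:**
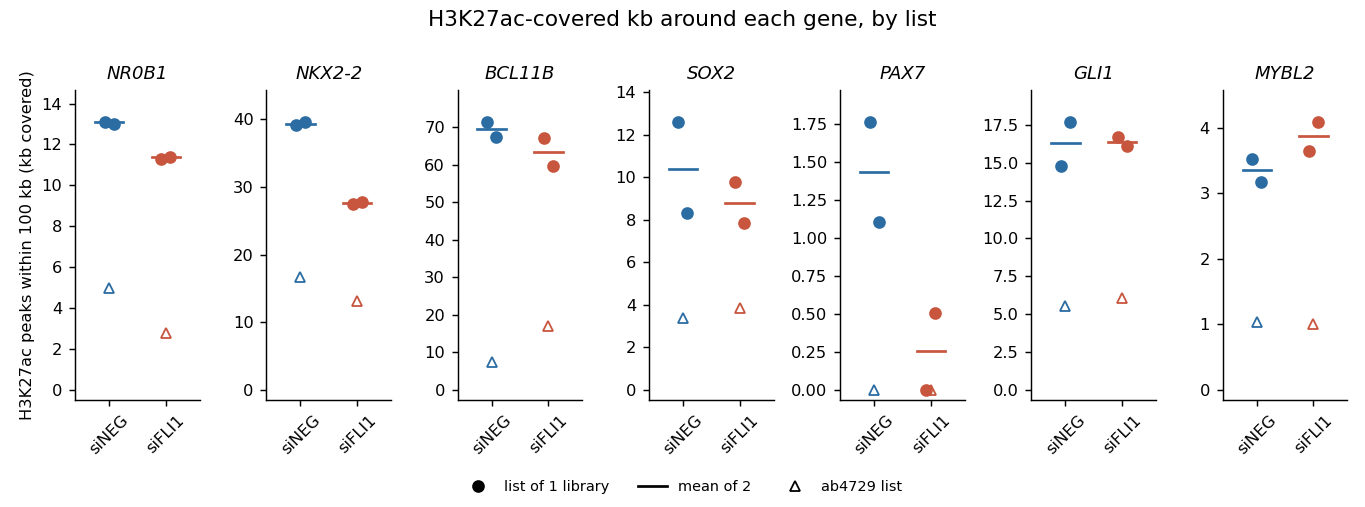
Kilobases covered by H3K27ac peaks within 100 kb of each gene (vertical axis, its own scale for each gene) in the siNEG and siFLI1 lists. Filled points are single lists, lines their means, and open triangles the ab4729 lists; the siFLI1 points lie below both siNEG points at NR0B1, NKX2-2, BCL11B and PAX7, and above them at MYBL2.

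NKX2-2 is a homeobox repressor of neural development, in the Ewing sarcoma setting a diagnostic marker and a mediator of the repressive part of the fusion's programme. It had the largest difference in H3K27ac length among the genes with peaks in every list. The covered length was 39.1 and 39.6 kb in the siNEG lists and 27.5 and 27.7 kb in the siFLI1 lists. Both siFLI1 values lie below both siNEG values with a wide gap. The log2 difference was -0.51 with a pooled SD of 0.01 (n = 2 per arm, exact permutation p = 0.33), and 8.15% of genes had a lower difference. The ab4729 lists gave 16.6 kb (siNEG) and 13.1 kb (siFLI1).

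The promoter of NKX2-2 and the cluster of regions upstream of it are given separately. Over the TSS, one H3K27ac region of 18.5 kb was in all 4 lists, with a fold over local background (the authors' ratio per peak) of 14.9 and 12.6 in siNEG and 13.5 and 15.3 in siFLI1. The folds of the arms overlap there, while the peaks covered 18.5 and 17.7 kb in siNEG and 16.7 and 16.8 kb in siFLI1. The ab4729 folds of this region were 7.91 in siNEG and 10.6 in siFLI1. Upstream, centred 42.7, 56.3 and 60.6 kb from the TSS, lay 3 regions in all 4 lists, at chr20:21552241-21561322, chr20:21568120-21572620 and chr20:21572991-21576251. The first, which contains the 9-unit repeat, had folds of 20.5 and 25.0 in siNEG and 9.11 and 8.97 in siFLI1, and 10.2 and 5.91 in the ab4729 lists. The second had 12.2 and 11.5 against 7.0 and 6.97. The third had 11.6 and 6.29 against 3.74 and 4.43, and its peaks covered 2.78 and 3.13 kb in siNEG and 0.719 and 0.684 kb in siFLI1. In each of the 3 regions both siFLI1 folds were the lower ones, as values of separately called lists. For folds, no share over all regions of a mark stands beside this, here or at the genes below.

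Just beyond the third region lay the lost region at chr20:21576427-21578054, 63.2 kb upstream of the NKX2-2 TSS. Its fold was 12.3 and 11.3 in the siNEG lists, high in each list (percentiles 90.1 and 93.1), with −log10 q of 63.0 and 42.1. In the other 9 lost regions no fold was above 5.32. The 20-unit repeat printed above lies between the third shared region, 32 bp from its edge, and this lost region. The other lost region of NKX2-2, at chr20:21561542-21562995, had folds of 4.88 and 3.76 and adjoins the region with the 9-unit repeat. H3K4me3 was also present at the first upstream region, at chr20:21556110-21562069, with folds of 48.9 and 26.5 in siNEG and 18.7 and 27.8 in siFLI1, which overlap. Its peaks covered 5.96 and 5.66 kb in siNEG and 3.9 and 4.30 kb in siFLI1, which do not.

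NR0B1 (DAX-1) is an orphan nuclear receptor without a DNA-binding domain of the usual kind, encoded on the X chromosome, and the gene in which activation of a GGAA repeat by the fusion is a textbook case. All 4 of its H3K27ac regions were centred within 6.91 kb of the TSS. The covered length was 13.1 and 13.0 kb in siNEG and 11.3 and 11.4 kb in siFLI1, 2 groups that do not overlap (log2 difference -0.20, pooled SD 0.01, n = 2 per arm, exact permutation p = 0.33). The ab4729 lists gave 4.98 and 2.78 kb. The repeat sits in the gap between the 2 regions that were in all 4 lists. The upstream one, chrX:30310879-30314860, had folds of 15.6 and 17.3 in siNEG and 6.61 and 7.51 in siFLI1, and 8.78 and 6.61 in the ab4729 lists. The one over the TSS and the gene, chrX:30301633-30310727, had 16.7 and 15.0 against 11.0 and 15.0 as the highest folds of the whole region. Within 1 kb of the NR0B1 TSS the highest folds were 16.7 and 15.0 in siNEG and 8.69 and 9.18 in siFLI1, both siFLI1 values being the lower ones, and 10.8 and 5.57 in the ab4729 lists. The lost region, chrX:30316068-30316531, was small, 6.91 kb upstream, with folds of 4.76 and 2.91.

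NR0B1 also had the only lost H3K4me3 region of the 30, or 3.33%, against a background of 2.83% for lost and 2.17% for gained H3K4me3 regions, and none of the 30 was gained. It lay at chrX:30313959-30314605, inside the upstream H3K27ac region, with folds of 3.22 and 4.29. With a stricter q-value (−log10 q of at least 5) or equal numbers of the strongest peaks it was no longer lost, and without siNEG replicate 1 or 2 the lost H3K4me3 regions were 6 or 7. H3K4me3 over the NR0B1 TSS was in all 4 lists, with folds of 70.8 and 46.9 in siNEG and 47.2 and 35.1 in siFLI1.

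PAX7, a paired-box regulator of muscle stem cells that Ewing sarcoma also expresses, had the least H3K27ac of the 7 genes. The covered length was 1.76 and 1.10 kb in the siNEG lists and 0 and 0.505 kb in the siFLI1 lists. The groups do not overlap, and siFLI1 replicate 1 had no H3K27ac peak in the whole window. The log2 difference was -2.60, with a pooled SD of 1.34 (n = 2 per arm, exact permutation p = 0.33), and 0.746% of genes had a lower one. This value depends on the 100 bp added, since 1 list was at 0, and without siFLI1 replicate 1 it was -1.30. Neither ab4729 list had a peak there.

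At PAX7, peaks of both siNEG lists stood beside the 18-unit repeat. Away from any repeat, siNEG replicate 1 alone had 2 more peaks. They lay 31.6 kb upstream (0.275 kb long) and 51.4 kb downstream (0.533 kb) of the TSS. The lost region, chr1:18611547-18612662, had folds of 5.29 and 4.29 and began 202 bp from the end of that repeat. Another run of 4 units lay 339 bp away. The 14-unit run in the gene had no siNEG peak within 1 kb and a peak of siFLI1 replicate 2 alone, with a fold of 3.37, 824 bp from it. No list had H3K27ac within 1 kb of the canonical PAX7 TSS, while H3K4me3 was there in all 4, with folds of 7.23 and 12.9 in siNEG and 8.08 and 7.51 in siFLI1. Its H3K4me3 region was narrow, 2.40 kb, wider than 19.6% of the 11242 regions over coding TSSs that were in all 4 lists.

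Of the 10 lost regions, the 1 at PAX7 and the 1 at NKX2-2 described above had a repeat within 1 kb of the centre, and across the genome 11.3% of lost regions had one. Seen from the repeats, 3.26% of those in the genome had a lost region centred within 1 kb. Of the 7 repeats near these genes with peaks of both siNEG lists, the 2 at PAX7 had none in either siFLI1 list, and the 5 at NR0B1 and NKX2-2 kept a called peak within 1 kb in at least 1 siFLI1 list. Genome-wide, 30.7% of 1774 such repeats had none. The 2 at PAX7 lie beside the same lost region, so they are not separate cases.

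**Figure D3:**
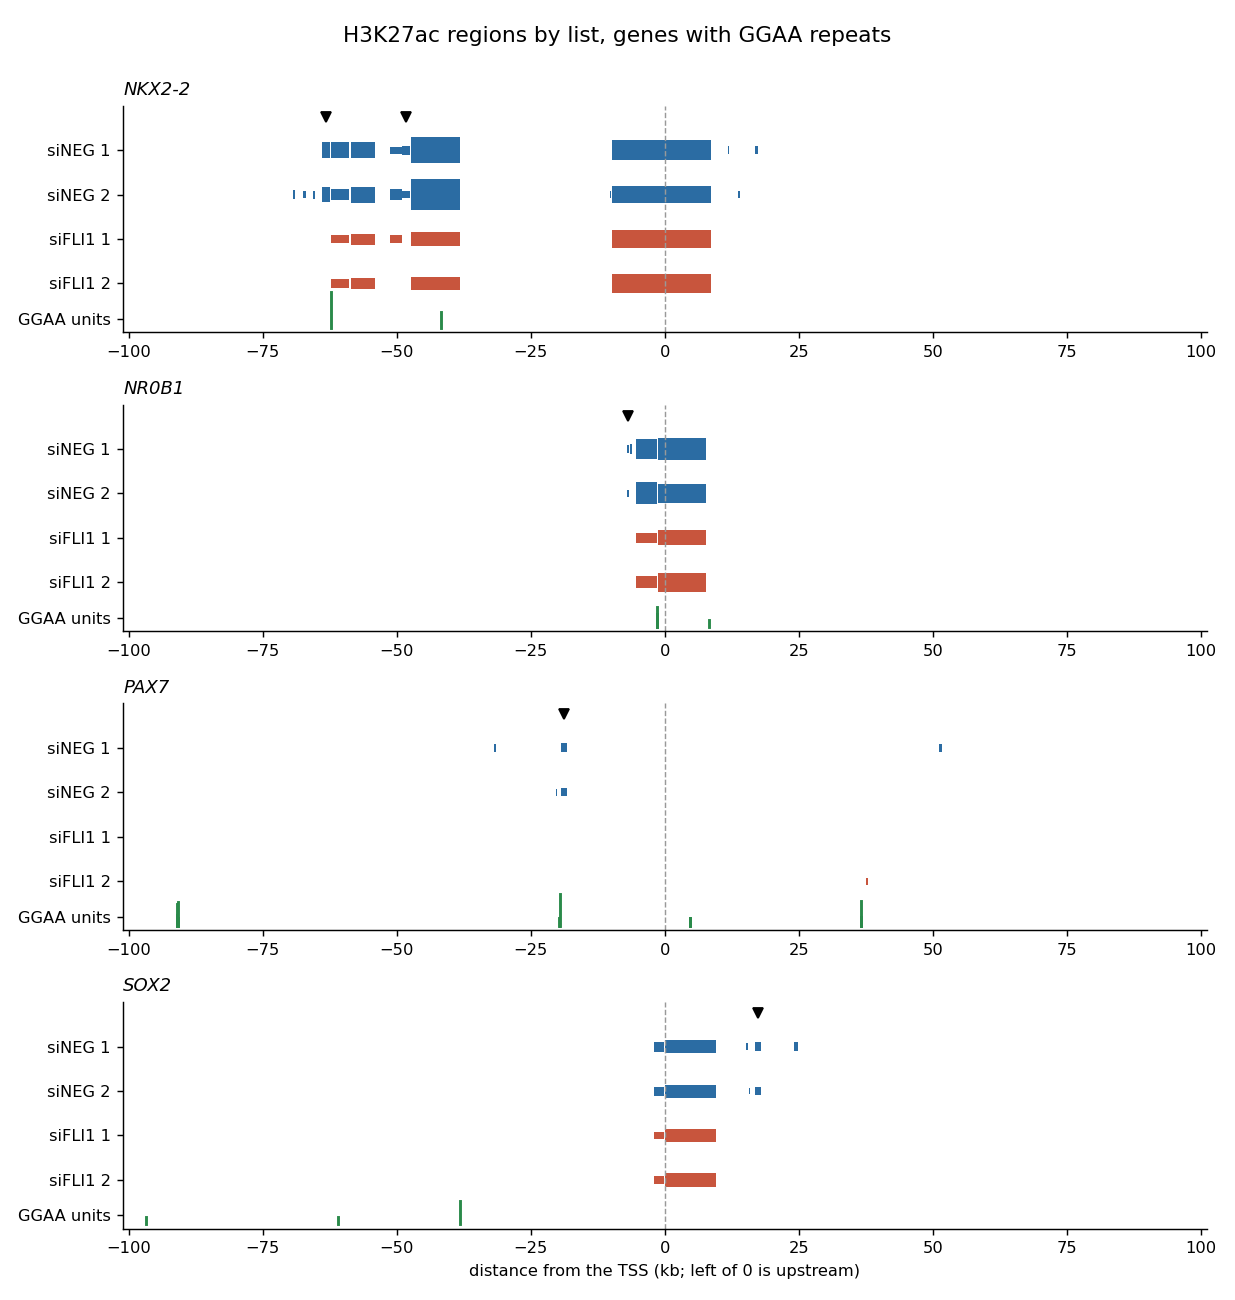
H3K27ac regions in each list against distance from the TSS (horizontal axis, kb) for the 4 genes with repeats. Each merged region is drawn at its full width in every list with a peak in it, bar thickness grows with the highest fold (to 30), black triangles mark lost regions, and green lines mark repeats with a height set by their number of units; the lost regions of NKX2-2 at 63.2 kb and PAX7 at 18.7 kb upstream stand beside the longest repeats, and the SOX2 repeats stand away from any peak.

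SOX2 is a pluripotency and neural stem cell factor of the HMG-box family. Its covered H3K27ac was 12.6 and 8.30 kb in siNEG and 9.76 and 7.84 kb in siFLI1, which overlap (log2 difference -0.22, pooled SD 0.34, n = 2 per arm, exact permutation p = 0.67). Without siNEG replicate 1 the difference was 0.08. The ab4729 lists gave 3.37 and 3.86 kb. The region over the TSS had highest folds of 8.23 and 8.85 in siNEG and 8.73 and 10.3 in siFLI1, which overlap. Within 1 kb of the SOX2 TSS they were 8.23 and 5.15 in siNEG and 8.73 and 10.3 in siFLI1, both siFLI1 values being the higher ones, and 7.91 and 8.34 in the ab4729 lists. A second region in all 4 lists, chr3:181709853-181711755, just upstream of the TSS, went the other way. Its folds were 6.0 and 5.01 in siNEG and 4.08 and 3.76 in siFLI1, its peaks covered 1.90 and 0.894 kb against 0.354 and 0.554 kb, and its ab4729 folds were 3.46 (siNEG) and 5.57 (siFLI1). The lost region lay 17.4 kb downstream, at chr3:181728673-181729880, in an intron of SOX2-OT, the long non-coding RNA gene that overlaps SOX2, with folds of 5.18 and 3.91. H3K4me3 over the TSS covered 7.25 kb as a merged region and had folds of 50.8 and 47.6 against 40.0 and 42.2.

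BCL11B is a zinc-finger repressor known from T cell and neuron development, and it had the most H3K27ac of the 7 genes. The covered length was 71.4 and 67.4 kb in siNEG and 67.1 and 59.6 kb in siFLI1, so the groups were separated by the small step from 67.4 to 67.1 kb. The log2 difference was -0.13 with a pooled SD of 0.09 (n = 2 per arm, exact permutation p = 0.33), and -0.05 without siFLI1 replicate 2. The ab4729 lists went the other way, with 7.41 kb in siNEG and 16.9 kb in siFLI1.

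Most of this length was in 3 domains within the gene, all in all 4 lists. The one over the TSS, 22.3 kb wide, had folds of 16.8 and 12.1 in siNEG and 16.6 and 13.7 in siFLI1. The next, 22.4 kb wide, had 15.9 and 13.8 against 15.6 and 16.4. The third, chr14:99206388-99221750, had 9.51 and 7.41 against 16.4 and 14.3, so here the siFLI1 folds were the higher ones, and of the ab4729 lists the siFLI1 one alone had a peak there.

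The 4 lost regions of BCL11B lay outside these domains. Those at chr14:99182700-99183211 (folds 3.94 and 3.55) and chr14:99196080-99196912 (5.32 and 2.91) were in an intron of BCL11B. The one at chr14:99274970-99276378 (4.53 and 4.42) lay 3.48 kb upstream, and the one at chr14:99331482-99332479 (4.12 and 4.12) 59.8 kb upstream, in an exon of the gene ENSG00000258383. The last 2 were those with an ab4729 peak in siFLI1. The gained region, chr14:99225390-99226136, was intronic, with folds of 4.29 and 4.76. All of these were weak peaks, with folds near the list medians of 4.33 to 4.81 or below them except for the 5.32.

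NKX2-2 and BCL11B stood out by the width of H3K4me3 over their TSSs. The merged region was 20.1 kb at NKX2-2 (percentile 99.98 of width among 11242 such regions) and 16.4 kb at BCL11B (99.9), against a median of 3.84 kb. NR0B1 had 7.42 kb (95.3) and SOX2 7.25 kb (94.8), while MYBL2 had 3.91 kb (51.7) and GLI1 3.60 kb (44.3). At BCL11B the peaks in this region covered 15.3 and 16.1 kb in siNEG and 10.7 and 12.6 kb in siFLI1. At NKX2-2 they covered 19.6 and 20.1 kb against 18.5 and 18.4 kb.

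**Figure D4:**
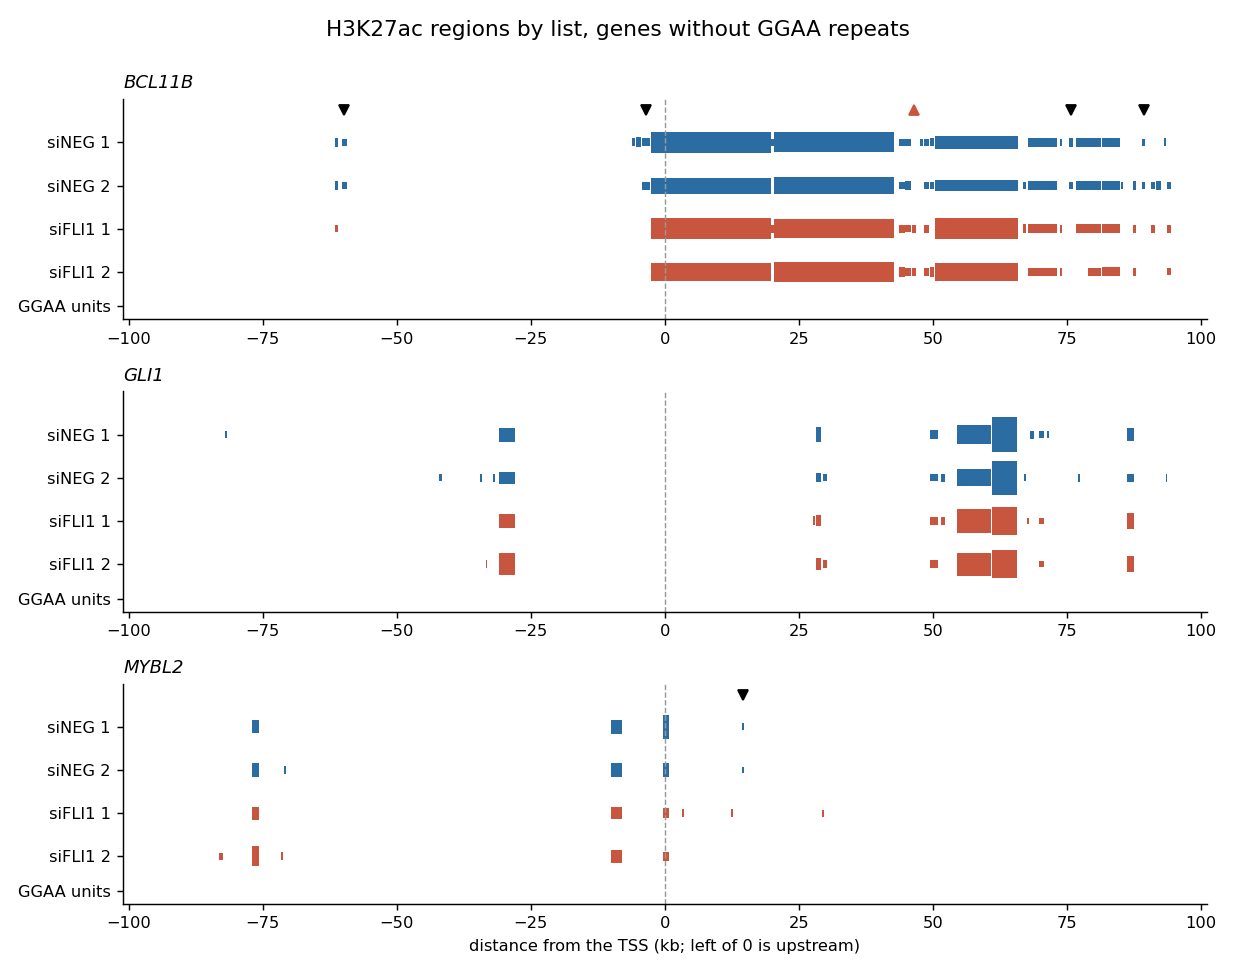
H3K27ac regions in each list against distance from the TSS (horizontal axis, kb) for the 3 genes without a repeat, drawn in the same way, with bar thickness growing with fold to 30, black triangles for lost regions and a red triangle for the gained one. BCL11B has 3 wide domains in every list, and the GLI1 TSS has no H3K27ac region.

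MYBL2 (B-MYB) is a cell cycle regulator that joins the MuvB complex to activate genes of late S phase and mitosis. Its covered H3K27ac was 3.53 and 3.17 kb in siNEG and 3.64 and 4.09 kb in siFLI1, the siFLI1 lists being the higher ones (log2 difference 0.20, pooled SD 0.11, n = 2 per arm, exact permutation p = 0.33). That is below the median difference of all genes, and within 50 kb or 250 kb the difference was -0.08 or -0.09. With 1 list left out it ran from 0.12 to 0.28. The window also holds IFT52, and of the 6 MYBL2 regions in 1 siFLI1 list alone, 3 lay at IFT52 or SGK2.

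At the MYBL2 promoter itself the folds were the lower ones in siFLI1. H3K27ac over the TSS, chr20:43666797-43667974, had folds of 20.0 and 9.44 in siNEG and 6.03 and 4.97 in siFLI1, and a peak with a fold of 7.97 in the siNEG ab4729 list alone. H3K4me3 there had folds of 58.8 and 58.8 in siNEG and 26.3 and 29.1 in siFLI1, and its peaks covered 3.41 and 3.58 kb against 2.28 and 2.04 kb. The H3K27ac peaks there covered 1.06 and 0.577 kb in siNEG and 0.796 and 0.275 kb in siFLI1, which overlap. The region was in all 4 lists of each mark. A region 9.02 kb upstream had H3K27ac folds of 9.87 and 10.3 against 8.76 and 9.51, a much smaller step. The lost region of MYBL2, chr20:43681414-43681959, was intronic and weak, with folds of 3.38 and 3.02.

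MYBL2 is known as an E2F target, and the E2F-type motif GGCGGGA is shown because it lies under this promoter peak. The motif was searched on both strands of the 250 bases before the transcript start in the RefSeq promoter table (GRCh38.p14), a search chosen after the values were seen. It occurs 1 time, on the plus strand, starting 39 bases before the start, and 13.5% of 35116 promoters of that length hold it. The stretch of 30 bases around it is chr20:43667064-43667093, with the motif in capitals.
MYBL2 promoter: ccgacgcgcttGGCGGGAgatagaaaagtg
Whether anything binds there was not tested. Of the 7 genes, 6 were matched in that table, and GLI1 was not.

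GLI1 is the zinc-finger effector of Hedgehog signalling, and it lies among 10 other protein-coding genes. No H3K27ac list, the ab4729 lists included, had a peak within 1 kb of its canonical TSS. Its window covered 14.8 and 17.7 kb of H3K27ac in siNEG and 16.7 and 16.1 kb in siFLI1, which overlap (log2 difference 0.02, pooled SD 0.13, n = 2 per arm, exact permutation p = 1.00). All 21 regions had a neighbour, such as R3HDM2, MARS1, MBD6 or DCTN2, as their nearest protein-coding gene. The highest folds, 32.7 and 34.5 in siNEG and 23.8 and 24.0 in siFLI1, were at MBD6 and DDIT3. H3K4me3 did cover the GLI1 TSS in all 4 lists, with folds of 14.7 and 14.5 against 16.7 and 8.71.

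**Figure D5:**
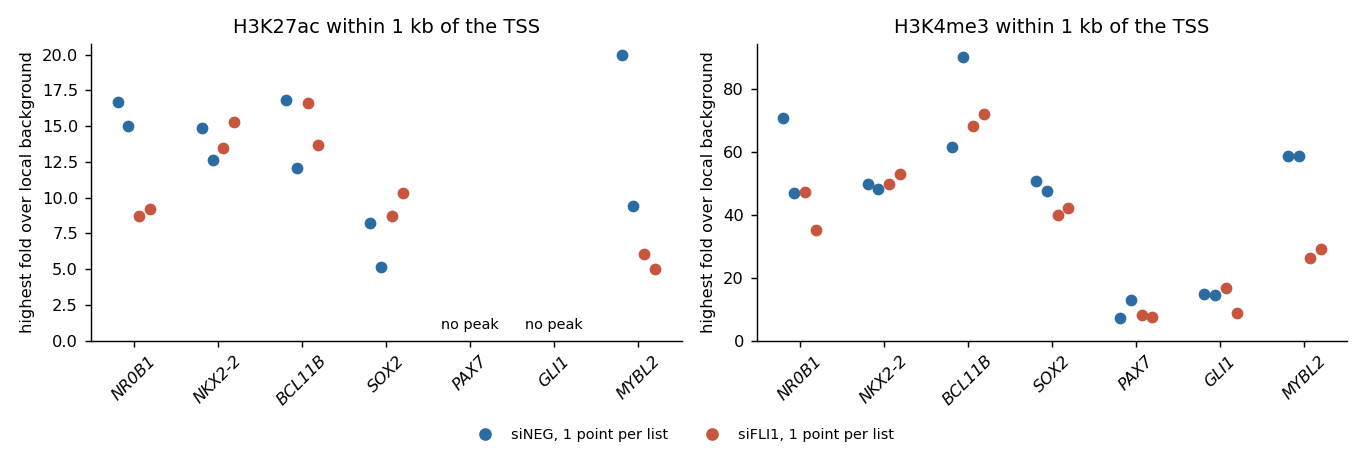
Highest fold over local background (vertical axis) of a peak within 1 kb of the canonical TSS, for H3K27ac and H3K4me3, with 1 point per list and colours for siNEG and siFLI1. The siFLI1 points of MYBL2 lie below both siNEG points for both marks, those of NKX2-2 lie among them or above, and PAX7 and GLI1 have no H3K27ac peak.

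ETS1 was gained at the GLI1 TSS. The region chr12:57459639-57459988 had no peak in either siNEG list and folds of 10.0 and 12.6 in the siFLI1 lists, at percentiles 91.5 and 93.4 of each list, with summits 20 and 56 bp from the canonical TSS. A second gained region of the window, chr12:57522869-57523210, lay at MBD6 with folds of 6.93 and 5.96. Of the 7 ETS1 regions near these genes, 2 were gained, or 28.6%, against a background of 44.0%, and none was lost, against 0.0739%. The siFLI1 lists held several times as many ETS1 peaks as the siNEG lists, and the siFLI1 pair counts as 1 sample, so a gained region here rests on 1 sample against 2. With equal numbers of the strongest peaks 1 region was gained and 1 was lost, and without siFLI1 replicate 1 the gained regions were 4.

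At the other genes ETS1 was sparse. NKX2-2 had a peak in siFLI1 replicate 2 alone, with a fold of 6.92 and its summit 208 bp inside the gene, and BCL11B had one in the same list, with a fold of 5.30, its summit 2.55 kb upstream. The MYBL2 window had 1 region in all 4 lists, at the IFT52 promoter (chr20:43590531-43590940), with folds of 9.90 and 14.7 in siNEG and 8.27 and 4.96 in siFLI1. No list had an ETS1 peak within 100 kb of NR0B1, SOX2 or PAX7, and none of the 19 GGAA repeats, those of NKX2-2 included, had one within 1 kb.

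Genes tied to the 7 by family or pathway are given by counts, with windows that can share regions, to be read beside the 4.86% of all H3K27ac regions that were lost and the 8.19% gained, and beside the 16.0% of all genes with more lost and the 38.5% with more gained. Around 11 paralogues of the 7 genes, 16 of 180 H3K27ac regions were lost (8.89%) and 7 gained (3.89%), and 5 genes had more lost than gained against 1 the other way. MYB, the founding relative of MYBL2, had 3 lost and none gained, with 11.7 and 13.5 kb in siNEG and 1.54 and 3.54 kb in siFLI1. PAX3 had 4 lost and 1 gained, and GLI2, which is also a Hedgehog effector, 5 lost and 3 gained. Around 12 genes of the Hedgehog pathway, which acts through GLI1, 14 of 260 were lost (5.38%) and 15 gained (5.77%), with 4 genes each way. PTCH1, the Hedgehog receptor and itself a target of the pathway, had none lost and 6 gained, with 16.3 and 10.7 kb in siNEG and 29.3 and 28.8 kb in siFLI1, while the inhibitor SUFU had 4 lost and 1 gained.

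Around 6 partners of MYBL2, 2 of 134 regions were lost (1.49%) and 9 gained (6.72%), and 3 genes had more gained and none more lost. The share of genes with more gained is near that of all genes. Of the MuvB subunits, LIN9 had 4 gained, LIN54 2 and RBBP4 1, with none lost. Around 14 other genes that the fusion is known to raise, 32 of 337 were lost (9.5%) and 9 gained (2.67%), and 9 genes had more lost against 2 the other way. PRKCB, a protein kinase C gene, had 11 lost and 2 gained, JAK1, a kinase of cytokine signalling, 6 lost and 1 gained, and CCND1, which encodes cyclin D1, 4 lost and none gained. The median log2 difference in covered H3K27ac was -0.34 over these 14 genes and -0.20 over the 7, beside 0.34 over the MuvB partners, 0.02 over the Hedgehog genes, 0.00 over the paralogues and the 0.27 of all genes.

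The protein-coding genes on other chromosomes with the most similar covered lengths over the 8 H3K27ac and H3K4me3 lists were taken as the nearest in pattern, by the mean absolute log2 difference per list. For NR0B1 this was CDCP2 (0.08), for NKX2-2 RPL13A (0.08), for BCL11B SIRT4 (0.10), for SOX2 EED (0.07), for GLI1 RNF212B (0.06) and for MYBL2 MRPS24 (0.10). PAX7 had no such close match, its nearest being KCNQ5 at 0.41. Of these genes, RPL13A had 6 lost H3K27ac regions and 1 gained, SIRT4 4 and 1, RNF212B 2 and 1, EED 1 and 1, KCNQ5 1 and 0, MRPS24 0 and 1, and CDCP2 none of either.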

How the data were processed

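The 14 deposited peak lists were called by the authors for each library separately. The submitters' processing notes name cutadapt 4.4, BWA 0.7.17, Picard 2.17.11 and MACS2 2.1.1 and the builds GRCh38, hg38 and dm6, with no role for each. Whether the fly build dm6 served to scale the libraries is not given in the sources used here, and such scaling could change the peaks, folds and lengths of one arm against the other. Of the deposited columns, the fold is a ratio that the authors' caller gave for each peak against local background, the −log10 columns are the authors' p-value and q-value, and the score column, the authors' whole number, was not used. The 8 input libraries were not analysed here.

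Peaks of a mark that shared at least 1 bp were merged across its 4 lists. Regions whose edge lay within 100 kb of a GENCODE release 44 TSS, and GGAA runs of at least 4 units scanned in hg38, were assigned to the genes with python 3.11.15 and numpy 2.4.6. A repeat beside a region lay within 1 kb of its centre. The code was tested on simulated data. Covered lengths were compared by an exact two-sided permutation test on log2(bp + 100). The members, gene lists and rules were chosen with earlier results of these data known. The text names every lost or gained region, regions over a TSS, per gene up to 2 other strong regions, and up to 3 genes per list by the difference of lost and gained. A few further regions, among them the third upstream region of NKX2-2, were named after their values were seen. Alternatives were a stricter q-value, equal peak numbers, other overlaps, windows and repeat rules, each replicate left out, and pairing.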

Additional observations from a re-analysis of the deposited data

Results flagged for a closer look

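The H3K27ac length near BCL11B was lower in both siFLI1 lists of the Active Motif antibody than in both siNEG lists, at a log2 difference of -0.13, and higher in the ab4729 siFLI1 list than in its siNEG list, at 1.18. Near MYBL2 the 2 antibody labels also pointed opposite ways, at 0.20 in the Active Motif lists and -0.06 in the ab4729 pair. So did the means near SOX2, at -0.22 and 0.19, but there the Active Motif lists of the 2 arms overlap. The ab4729 step at MYBL2 was small, from 1.04 kb in siNEG to 1.00 kb in siFLI1. At MYBL2 and SOX2 the values of both labels lie below the medians of all genes (0.27 for Active Motif, 0.67 for ab4729). The difference between the antibody labels was not tested, since ab4729 has 1 list per arm, and as that label also carries the Active Motif catalogue number, the pair may not differ by antibody. The ab4729 siFLI1 list held 51663 peaks and the siNEG one 32738, and the median ab4729 difference over all genes was 0.67.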

How the results depend on the processing

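Of 138 alternative values for 14 results, 108 kept their direction or stayed within 1.5 times the reported count. The paired values of the 7 genes are among the 108, and they equal the reported ones by construction. The 10 lost H3K27ac regions were 6 within 50 kb and 16 within 250 kb, and 11 to 30 with 1 list left out. They were 7 with −log10 q of at least 5, and 7 with no peak of the other arm within 1 kb. The 1 gained region was 2 with −log10 q of at least 5, 2 within 250 kb, 0 with no peak of the other arm within 1 kb, and 3 to 7 with 1 list left out. The lost H3K4me3 region was gone (0) with −log10 q of at least 5 or equal peak numbers. With 1 list left out, 1 to 7 H3K4me3 regions were lost and 0 to 2 gained. Lost ETS1 regions were 1 with equal peak numbers. The 2 gained ETS1 regions were 1 with equal peak numbers, with no peak of the other arm within 1 kb or within 50 kb, and 2 to 4 with 1 list left out. Leaving out a list asks for a peak, or for the lack of one, in fewer lists, which by construction lets more regions pass. The covered H3K27ac length changed sign at GLI1, to -0.0013 with equal peak numbers, -0.05 within 50 kb and -0.07 within 250 kb, with -0.11 to 0.15 when 1 list was left out (-0.0071 without siFLI1 replicate 1). It changed sign at MYBL2 within 50 kb (-0.08) and 250 kb (-0.09), and at SOX2 without siNEG replicate 1 (0.08, in a range of -0.52 to 0.08 with 1 list left out). The cause of these changes was not tested. In a paired analysis by replicate number (replicate block) the mean differences were -0.20 at NR0B1, -0.51 at NKX2-2, -0.13 at BCL11B, -0.22 at SOX2, -2.60 at PAX7, 0.02 at GLI1 and 0.20 at MYBL2. By construction these means equal the unpaired differences. Replicates 1 and 2 singly gave -4.22 and -0.98 at PAX7, -0.37 and -0.08 at SOX2, and -0.09 and -0.18 at BCL11B. They gave 0.17 and -0.14 at GLI1, 0.04 and 0.36 at MYBL2, -0.21 and -0.19 at NR0B1, and -0.51 in both at NKX2-2. Replicate 1 deviated the same way in both arms at 3 of 7 genes, and the labels do not say whether a number marks a shared batch. A peak list holds no depth, so absence from a list is not absence of the mark.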
